A study of Mus musculus with 14 samples.

Results

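The regions described here were distal stretches of DNA that became accessible in mouse embryonic stem (ES) cells within 2 h of GATA6 induction and were no longer detected at 48 h. They were chosen by their own peak calls. Peaks from 14 ATAC-seq lists were merged wherever they overlapped by at least 1 bp, and any overlapping peak of a library counted as a call of the region in that library. A region was chosen if its midpoint lay over 1 kb from every protein-coding transcription start site (TSS), if it was called in no 0 h and no 48 h library, and if 2 h was the first time point at which both libraries called it. This gave 7739 transient regions among 102167 distal and 121891 autosomal regions. The calls at 0, 2 and 48 h chose the regions and are given as description only, whereas the calls at 4, 8, 16 and 24 h, the peak scores at those times and the DNA sequence took no part in the choice.

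All libraries came from 1 ES cell line, KH2, labelled as strain C57BL/6 and carrying TRE:GATA6-DSREd2, in which a doxycycline (Dox)-responsive promoter drives the GATA6 transgene. The 0 h cells were kept without Dox in 2i medium, a serum-free medium with LIF and inhibitors of MEK and GSK3. Cells of 2, 4 and 8 h were in serum medium with LIF and Dox at 1 µg/mL. Cells of 16, 24 and 48 h had the same medium and Dox for 12 h and were then cultured in it without Dox. Each library was made from 50000 cells, with 2 libraries per time point, and the study describes its replicates as performed independently in general terms, while nothing in the labels says whether the libraries of a time point came from separate cultures, so p-values measure the spread between these libraries, which may be technical. The loss of the inhibitors, the arrival of serum and the arrival of Dox fell together at induction and cannot be told apart, and a bulk library cannot separate fewer accessible cells from less access per cell.

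ATAC-seq uses a transposase that inserts adapters where DNA is free of nucleosomes, so a peak marks an accessible site such as an enhancer. GATA factors, which specify endoderm, can bind their motif in closed chromatin and are called pioneer factors. AP-1 factors, dimers of FOS and JUN proteins, are products of genes that respond within minutes to growth factors, serum and ERK signalling, the pathway that an inhibitor of MEK blocks. In the blastocyst, GATA6 marks the primitive endoderm (PrE), the source of the yolk sac endoderm, and NANOG marks the epiblast (Epi), the source of the fetus.

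Short windows of 200 bp around the midpoint of single regions are shown first, so that the GATA and AP-1 motifs counted below can be seen in place. They are GRCm38, plus strand, and each is the transient region with the highest 2 h score of its duration or motif class, except that the 4 h line has the second highest. Capitals mark every match, on either strand, to the GATA motif (AGATAA or, with another last base, AGATAG, and with another first base TGATAA or, with both, TGATAG) or the AP-1 motif (TGANTCA). The first line was called by both 2 h libraries and by none afterwards, and the next 4 lines were last called in both libraries at 4, 8, 16 and 24 h. The 8 h line is also the highest-scoring transient region with both motifs, and the 24 h line the highest with AP-1 and no GATA. The sixth line is the highest with GATA and no AP-1. The last line is not transient and shows, for contrast, a region that opened at 2 h and was kept to 48 h. As single regions they need not follow their class, and the 2 h line holds GATA without AP-1 and the 24 h line AP-1 without GATA, the reverse of what was most frequent in those classes.
chr7:51964901-51965100, last at 2 h, intron of Gas2: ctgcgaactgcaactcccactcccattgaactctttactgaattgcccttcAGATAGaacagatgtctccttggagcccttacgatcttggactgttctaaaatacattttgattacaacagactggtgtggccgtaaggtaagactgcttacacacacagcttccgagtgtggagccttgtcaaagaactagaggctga
chr15:79813800-79813999, last at 4 h, intron of Npcd: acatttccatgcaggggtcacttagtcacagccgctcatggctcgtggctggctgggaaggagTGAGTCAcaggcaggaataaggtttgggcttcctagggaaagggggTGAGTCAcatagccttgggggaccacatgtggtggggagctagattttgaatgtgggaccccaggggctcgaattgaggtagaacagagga
chr4:133071018-133071217, last at 8 h, intron of Ahdc1: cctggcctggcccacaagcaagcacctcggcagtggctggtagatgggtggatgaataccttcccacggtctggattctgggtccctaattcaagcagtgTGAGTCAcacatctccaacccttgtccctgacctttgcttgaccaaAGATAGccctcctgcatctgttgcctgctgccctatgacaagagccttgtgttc
chr4:117992208-117992407, last at 16 h, intron of St3gal3: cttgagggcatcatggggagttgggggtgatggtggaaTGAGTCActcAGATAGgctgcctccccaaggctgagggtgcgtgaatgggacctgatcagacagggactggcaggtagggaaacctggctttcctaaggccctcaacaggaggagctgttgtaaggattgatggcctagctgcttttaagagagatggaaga
chr3:148936920-148937119, last at 24 h, intron of Adgrl2: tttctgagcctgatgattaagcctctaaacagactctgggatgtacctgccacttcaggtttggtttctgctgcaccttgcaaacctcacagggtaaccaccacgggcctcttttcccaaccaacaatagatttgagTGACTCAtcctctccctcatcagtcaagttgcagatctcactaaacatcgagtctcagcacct
chr6:38809279-38809478, GATA without AP-1, intron of Hipk2: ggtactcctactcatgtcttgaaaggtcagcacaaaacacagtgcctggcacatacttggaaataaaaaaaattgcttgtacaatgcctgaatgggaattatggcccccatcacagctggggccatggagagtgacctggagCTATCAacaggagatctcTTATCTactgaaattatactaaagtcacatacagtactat
chr2:152869383-152869582, kept to 48 h, intron of Tpx2: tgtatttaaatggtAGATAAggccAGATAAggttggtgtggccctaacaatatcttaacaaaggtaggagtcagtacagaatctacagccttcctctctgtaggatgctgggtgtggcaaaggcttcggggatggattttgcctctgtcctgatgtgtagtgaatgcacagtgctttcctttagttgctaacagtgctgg

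The score of a peak was expressed as its percentile within its own list, from 0 for the lowest to 100 for the highest score. The Ahdc1 region, which has 1 AP-1 and 1 GATA match, stood at 99.6 and 99.5 in the 2 h libraries, 98.7 and 98.4 at 4 h and 83.6 and 81.9 at 8 h, and was in neither list at 16 h. It was among the strongest peaks of the genome at 2 h and was undetected by 16 h. The Adgrl2 region, with 1 AP-1 match, declined more slowly, from 97.8 and 98.4 (2 h) and 99.1 and 99.7 (4 h) to 96.6 and 95.8 at 8 h, 86.1 and 80.5 at 16 h and 22.5 and 14.3 at 24 h. By comparison, the kept Tpx2 region with 2 GATA matches never fell under 91.3 in the 12 libraries from 2 to 48 h. The Gas2 region was called in only the 2 h libraries although its percentiles there were 86.3 and 88.2. The Hipk2 region, with 2 GATA matches, had percentiles of 95.9 and 97.9 at 2 h, 95.7 and 96.5 at 4 h and 80.5 and 82.8 at 8 h, and was called in 1 library at 16 h with a percentile of 16.9.

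To ask how long the transient regions stayed accessible, their calls were followed in each library. Of the 7739 regions, 63.4% and 66.6% were called in the libraries of 4 h, 41.6% and 40.6% at 8 h, 20.7% and 23.7% at 16 h, and 8.42% and 8.98% at 24 h. In the order 4, 8, 16 and 24 h, the means were 65.0% ± 2.27, 41.1% ± 0.713, 22.2% ± 2.10 and 8.70% ± 0.393 (SD over 2 libraries each). The libraries of different time points did not overlap, and the steps between time points were larger than the gaps between replicates. Over the 8 libraries the share fell with time (Spearman rho = -0.976, p = 0.000794, adjusted p = 0.00119; Pearson r = -0.965, p = 0.000794, adjusted p = 0.00119; exact two-sided permutation tests, Benjamini-Hochberg adjusted over 6 relations). Without the libraries of 24 h, the farthest from the median time, r was -0.965 (exact permutation p = 0.0222). The smallest p that 8 libraries in 4 pairs of equal times allow is 0.000794 for rho and 0.000397 for r. At a single pair of time points, 2 libraries against 2 cannot go below an exact p of 0.333, so no single step was tested. A fall is partly set by the choice, since every region had to be called at 2 h and none could be called at 48 h, and the new information is its course between these times.

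Regions that opened at 2 h but were kept showed no such decline. These 1796 regions, absent from both 0 h lists and present in both lists of 2 h and of 48 h, were called at 89.0% to 92.8% in the 8 libraries between 4 and 24 h. The difference between kept and transient regions grew from 26.8 ± 0.927 percentage points at 4 h through 50.1 ± 0.595 by 8 h and 68.3 ± 0.0639 by 16 h to 82.1 ± 1.06 at 24 h (SD over 2 libraries each). It rose with time (rho = 0.976, p = 0.000794, adjusted p = 0.00119; r = 0.968, p = 0.000794, adjusted p = 0.00119; exact permutation tests; r = 0.966 without 24 h). Part of this direction follows from the choice, since kept regions had to be called at 48 h and transient ones could not be. Across all distal regions the called share lay between 36.1% and 46.0% in the same libraries, and no trend with time was detected (rho = -0.488, p = 0.247, adjusted p = 0.247; r = -0.554, p = 0.165, adjusted p = 0.165; exact permutation tests). That r became 0.357 without the libraries of 24 h, where the lists held fewer distal calls.

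**Figure D1:**
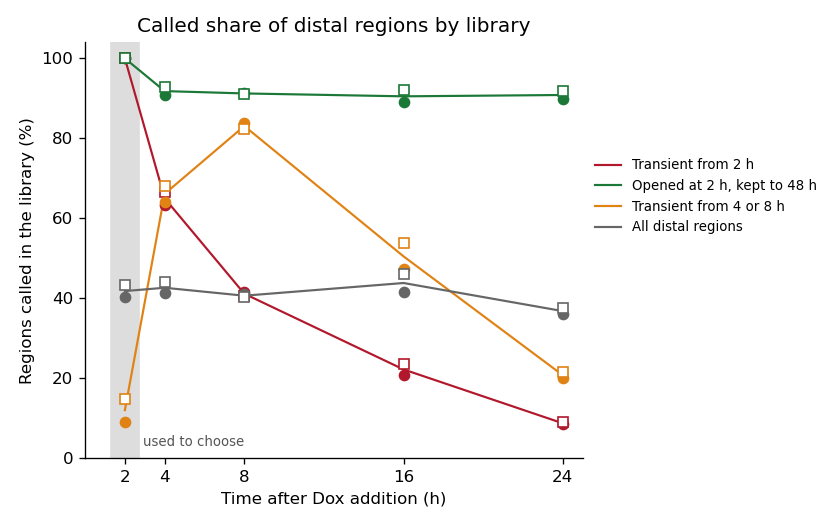
Percentage of regions called in each library (y axis) against hours after Dox addition (x axis). Filled circles are replicate 1, open squares replicate 2, and lines join the means of 2 libraries. The grey band marks 2 h, whose calls chose the transient and kept regions. Transient regions fell from 65.0% at 4 h to 8.70% at 24 h while kept regions stayed between 89.0% and 92.8%.

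Calls in both libraries of a time point gave the same order. At 2 h, where all 7739 transient regions were called by the rule, 34.8% of all distal regions were called in both libraries. At 4 h both libraries called 4359 transient regions, or 56.3%, against 35.6% of all distal regions. By 8 h the count was 2654, or 34.3%, which was near the 33.5% of all distal regions. At 16 h it was 1387, or 17.9%, against 36.8%, and at 24 h it was 457, or 5.91%, against 30.4%. Transient regions were thus called more often than distal regions in general at 4 h, about as often at 8 h and less often from 16 h. Of those called in both libraries at one time point, 56.3% were again called in both from 2 to 4 h, 57.1% from 4 to 8 h, 45.4% from 8 to 16 h and 29.3% from 16 to 24 h. These intervals differ in length, and the last of them begins after Dox was removed.

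Most runs of calls had no gap. For 7346 regions (94.9%) the calls in both libraries formed an unbroken run from 2 h. The run ended at 2 h for 3125 regions (40.4%), at 4 h for 1758 (22.7%), at 8 h for 1300 (16.8%), at 16 h for 794 (10.3%) and at 24 h for 369 (4.77%). The other 393 regions (5.08%) had a gap in the run. Not all of the 3125 shortest runs were clean, as 1825 regions, 23.6% of all transient ones, were called in no library after 2 h and the rest were called again in at least 1 library.

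**Figure D2:**
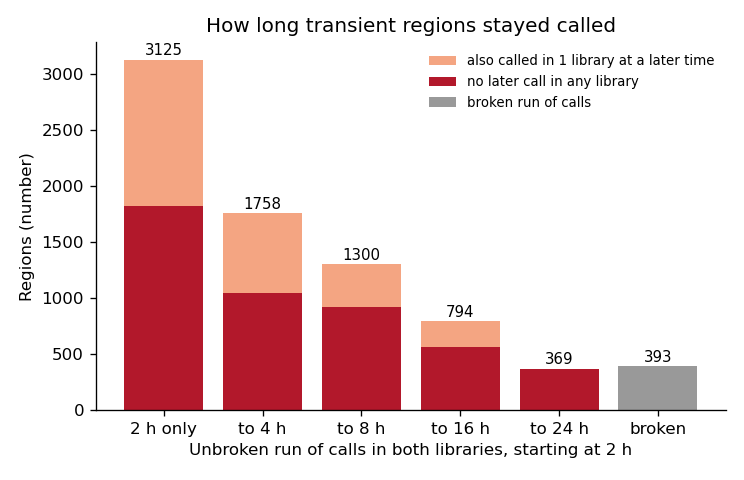
Number of transient regions (y axis) by the last time point of their unbroken run of calls in both libraries (x axis). Dark red marks regions in no list afterwards, light red regions found again in single libraries of later times, and grey the 393 regions with a broken run. The largest class, 3125 regions, was called in both libraries at 2 h only, and 369 lasted to 24 h.

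Because both 2 h libraries were used to choose the regions, part of the step from 2 to 4 h comes from the choice. As a check, regions were chosen with 1 of the 2 h libraries and read in the other. The 2 h library left out called 78.3% of the 9884 regions chosen on replicate 1 and 69.3% of the 11169 chosen on replicate 2, a mean of 73.8% ± 6.37 (SD, n = 2). The library of 4 h with the other replicate number called 55.1% ± 4.52 of the same sets (SD, n = 2), that of 8 h called 35.5% ± 0.844, that of 16 h called 20.1% ± 2.44 and that of 24 h called 8.27% ± 0.291. The values at 2 h and 4 h did not overlap within either set of regions. The left-out library had itself missed part of each set, although it was of the same time point as the library that chose it. These sets were chosen on 1 of the 2 h libraries and are larger than the set of transient regions. How much of the transient regions' step from 2 to 4 h the choice gives was therefore not measured.

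Among the transient regions still called, the median percentile was first higher and then lower, over a set that shrank with time. The median percentile was 41.0 and 44.4 in the 2 h libraries, 46.4 and 48.0 at 4 h, 45.2 and 42.6 at 8 h, 37.2 and 39.4 at 16 h and 22.9 and 22.5 at 24 h. From 4 h on it fell with time (rho = -0.976, p = 0.000794, adjusted p = 0.00119; r = -0.963, p = 0.000397, adjusted p = 0.00119; exact permutation tests; r = -0.957 without 24 h). The higher median at 4 h need not be a rise of single regions. Those whose run ended at 2 h had the lowest 2 h scores, as given below, so their loss alone raises the median. Kept regions, most of which stayed called, went from 43.0 and 46.6 at 2 h to 74.5 and 75.9 at 4 h, and stood at 69.3 and 69.6 at 24 h. At 2 h the transient and kept regions therefore had similar ranks, and at 4 h the medians were far apart. Duration was related to the 2 h score, as a description. Regions whose run ended at 2 h had median percentiles of 28.1 and 30.8 in the 2 h libraries, those lasting to 4 h had 50.8 and 54.3, those lasting to 8 h had 61.0 and 62.8, and those lasting to 24 h had 54.3 and 54.7. The shortest class thus had the lowest 2 h scores, and in it a loss of signal and a peak near the calling threshold cannot be told apart. The order did not continue beyond 8 h.

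The DNA of the transient regions was then read for motifs. The AP-1 motif was frequent, with 4082 of 7739 transient regions (52.7%) holding TGANTCA in the central 200 bp against 13.1% of all distal regions. It was found in 20.0% of kept regions, in 14.4% of the 5155 regions that opened transiently from 4 or 8 h, and in 10.1% of the distal regions that all 4 libraries of 0 h and 2 h called. A motif with the same letters in another order, GTANTAC, was found in 1.37% of transient and 1.31% of all distal regions. The middle base differed too, with TGACTCA or TGAGTCA, the forms that FOS and JUN dimers bind best, in 47.4% of transient and 10.3% of all distal regions, and TGAATCA or TGATTCA in 8.02% and 3.15%. At least 2 AP-1 matches were found in 9.19% of transient and 1.29% of all distal regions, as in the Npcd window above.

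The GATA motif was found in 3235 transient regions (41.8%), close to the 39.5% of all distal regions and above the 26.8% of distal regions that all 4 libraries of 0 h and 2 h called, whereas 68.3% of kept regions and 74.0% of the regions transient from 4 or 8 h held it. The same letters in another order, AAGTAA or, with another last base, AAGTAG, and with another first base TAGTAA or, with both, TAGTAG, were found in 23.6% of transient and 22.8% of all distal regions. AP-1 matches were concentrated at the midpoint of transient regions, with 8.06% of regions holding one in the central bin of 20 bp and 1.33% in bins 200 bp or more away. GATA matches in the same regions were nearly flat, at 6.07% in the centre and 4.20% far from it. Over all distal regions the same values were 6.28% and 3.91% for GATA and 1.82% and 0.716% for AP-1. GATA rose to 13.4% from 5.44% in kept regions and to 15.3% from 5.98% in regions transient from 4 or 8 h.

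**Figure D3:**
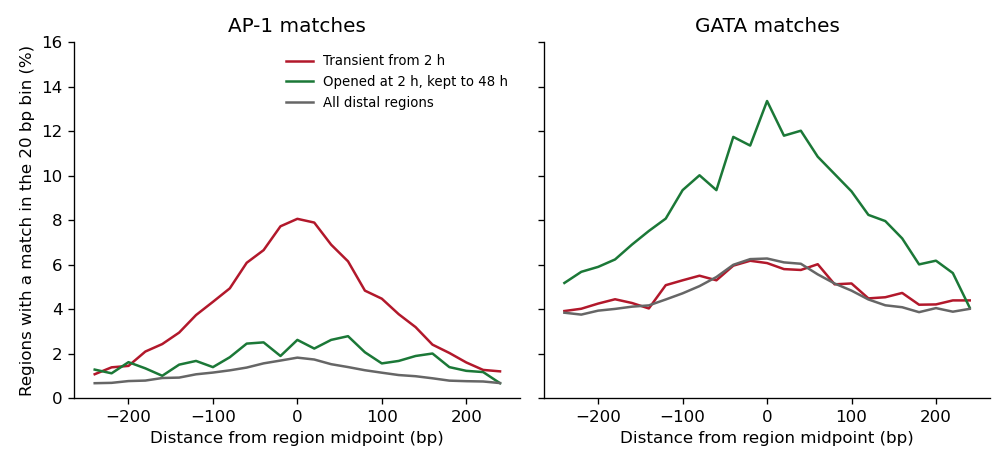
Percentage of regions with a motif match in each bin of 20 bp (y axis) against distance from the region's midpoint in bp (x axis), for AP-1 (left) and GATA (right). Lines are the 7739 transient regions, the 1796 kept regions and all 102167 distal regions. AP-1 peaks at the centre of transient regions, at 8.06%, and GATA at the centre of kept regions, at 13.4%.

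Few other motifs set the transient regions apart. The TEAD motif (CATTCCA or CATTCCT) was found in 12.6% of them and 11.8% of all distal regions, the SRF motif, known as the CArG box, in 1.02% and 0.906%, and the CREB and ATF motif TGACGTCA in 0.310% and 0.267%. Motifs of pluripotency factors were likewise near the level of all distal regions, with the octamer ATGCAAAT of OCT4 in 2.46% and 2.60%, CATTGT of SOX factors in 13.4% and 15.0%, NAAGGTCA of ESRRB in 7.15% and 6.11% and TTCCNGGAA of STAT3 in 1.03% and 1.15%. GGGCGTGG or GGGTGTGG of KLF factors was in 6.27% and 7.54%, and CCGGAAG of ETS factors in 1.72% and 1.94%. The consensus of CTCF, the insulator protein that anchors chromatin loops, was rarer, found in 21 transient regions (0.271%) against 2.85% of all distal and 3.17% of kept regions, though it was also rare, at 0.563%, in regions transient from 4 or 8 h. Such a match is a run of letters and says nothing of whether a protein was bound.

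Motif content differed between regions of different duration. AP-1 was found in 57.2% of regions whose run ended at 2 h, 57.5% of those lasting to 4 h and 58.3% to 8 h, but in 37.3% of those lasting to 16 h and 23.0% to 24 h. GATA was found in 29.3%, 38.7%, 54.3%, 64.7% and 70.7% of the same classes. In the regions whose run ended at 2 h the permuted GATA letters were found in 24.5%, not far under GATA itself, and the longest-lasting regions were near the 68.3% of kept regions. At least 2 GATA matches were found in 5.18% of the shortest and 32.2% of the longest class.

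**Figure D4:**
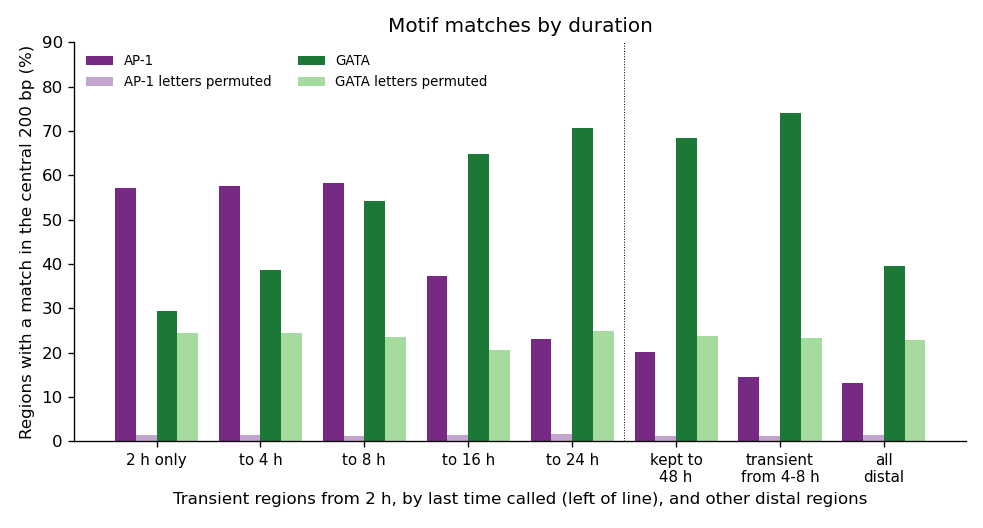
Percentage of regions with a match in the central 200 bp (y axis) for AP-1, GATA and both motifs with permuted letters. Left of the dotted line are transient regions by the last time of an unbroken run (x axis), and right of it kept regions, regions transient from 4 or 8 h and all distal regions. From the shortest to the longest duration, AP-1 goes from 57.2% to 23.0% and GATA from 29.3% to 70.7%.

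The same was seen library by library, where each value is a share of the transient regions still called. AP-1 was in 51.0% and 50.9% of them at 4 h, 46.4% and 46.0% at 8 h, 33.3% and 34.7% at 16 h and 27.3% and 28.6% at 24 h. This share fell with time (rho = -0.976, p = 0.000794, adjusted p = 0.00119; r = -0.988, p = 0.000397, adjusted p = 0.00119; exact permutation tests; r = -0.996 without 24 h). GATA was in 48.9% and 48.7% at 4 h, 55.9% and 56.2% at 8 h, 60.8% and 59.7% at 16 h and 59.4% and 60.7% at 24 h, so that 16 h and 24 h overlapped. Its rise passed the threshold (rho = 0.830, p = 0.0198, adjusted p = 0.0238; r = 0.851, p = 0.00833, adjusted p = 0.01; exact permutation tests; r = 0.941 without 24 h). The call held when any 1 library of 16 h or 24 h was left out. It was lost when replicate 1 of 2 h was left out (rho = 0.683, exact permutation adjusted p = 0.0990), when either library of 4 h was left out (rho = 0.753, adjusted p = 0.0800 each) and when either library of 8 h was left out (rho = 0.753, adjusted p = 0.0762 each).

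AP-1 content also differed between time points among the distal regions that were not transient from 2 h. Of those called in a library, 7.85% and 7.73% held it at 0 h, 13.4% and 14.1% at 2 h, 11.6% and 11.5% at 4 h, 10.1% and 10.2% at 8 h, 7.90% and 7.82% at 16 h and 7.21% and 7.24% at 24 h. The 2 h libraries were highest and no other library reached them. The regions read here include 5575 that were called in 1 of the 2 h libraries and in no 0 h or 48 h library. How far these raise the 2 h values was not measured, so the 2 h values are not independent of the choice. GATA was also more frequent with time up to 8 h among these regions outside the transient set, with no test. It went from 24.2% and 24.3% at 0 h through 31.1% and 30.9% at 2 h and 38.6% and 38.8% at 4 h to 43.3% and 42.5% at 8 h. It then stood at 41.9% and 42.2% at 16 h, 40.6% and 40.8% at 24 h and 44.3% and 43.8% at 48 h. With the transient regions included, AP-1 was in 20.8% of called distal regions in both 2 h libraries, and GATA in 33.1% and 32.8%. Transient regions made up 18.8% and 17.5% of the distal regions called at 2 h, 11.6% and 11.5% at 4 h and 1.77% and 1.82% at 24 h.

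Splitting the transient regions by motif gave 2616 with AP-1 only (33.8%), 1769 with GATA only (22.9%), 1466 with both (18.9%) and 1888 with neither (24.4%). Among all distal regions the corresponding shares were 8.15%, 34.6%, 4.91% and 52.4%. Regions with GATA only were called at 75.4% and 78.9% at 4 h, 59.3% and 58.7% at 8 h, 38.2% and 42.2% at 16 h and 16.7% and 17.8% at 24 h. Regions with AP-1 only were called at 54.8% and 57.6% at 4 h, 28.5% and 27.5% at 8 h, 8.98% and 11% at 16 h and 3.33% and 3.52% at 24 h. GATA-only regions were higher in 8 of 8 libraries, by 13.4 to 31.2 percentage points. Regions are not replicates and the split was made after the motif shares were known, so this difference carries no p-value.

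Having both motifs gave values between these. Such regions were called at 72.8% and 75.9% at 4 h, near the GATA-only regions, and at 6.21% and 7.30% at 24 h. Their matches overlapped in 9 of 1466 regions. Regions with neither motif were close to AP-1-only regions at 4 h, with 56.7% and 60.2%, and above them at 24 h, with 9.43% and 9.59%. The GATA-only regions had lower 2 h percentiles than the AP-1-only regions, with medians of 36.6 and 41.0 against 43.0 and 46.4, and yet were called longer. With the regions divided into 4 groups of equal size by their 2 h score, the GATA-only regions were higher in 32 of 32 combinations of library and score group. In the lowest score group at 4 h they were called at 56.0% and 61.1% against 19.7% and 22.4% for AP-1 only, and in the highest at 95.4% and 96.8% against 90.7% and 91.2%.

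**Figure D5:**
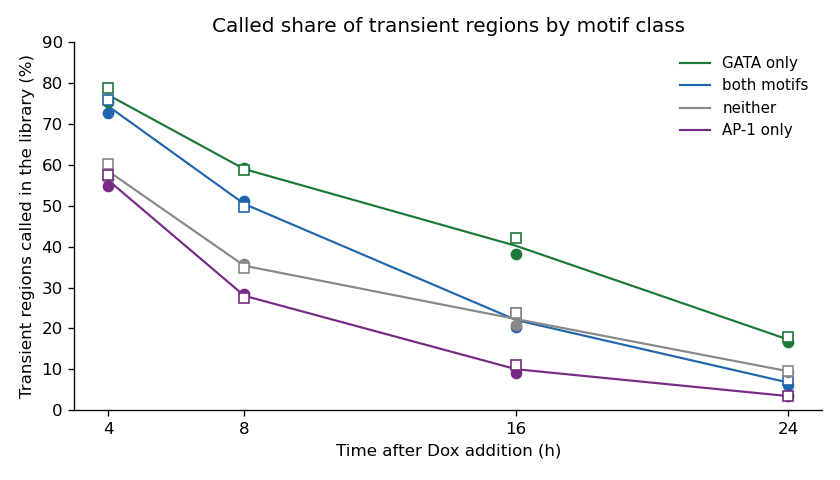
Percentage of transient regions called in each library (y axis) against hours after Dox addition (x axis), for regions with GATA only, both motifs, neither and AP-1 only. Filled circles are replicate 1, open squares replicate 2, and lines join the means of 2 libraries. GATA-only regions stay highest, at 16.7% and 17.8% by 24 h, and AP-1-only regions lowest, at 3.33% and 3.52%.

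In position and size the transient regions were mostly close to distal regions in general. By the annotation 48.9% lay in introns, 2.39% in exons and 48.7% between genes, against 47.4%, 4.54% and 48.1% of 10217 distal regions taken at even steps along the genome. Their median GC content over the central 200 bp was 48.5%, against 49.5%. Their merged width had a median of 516 bp, against 466 bp. A region merged from more lists is wider by construction, and every transient region came from at least 2 lists. The 2 medians are therefore not like for like, and width was not compared between durations. The median distance to the nearest TSS was 27123 bp, against 24040 bp, and 14.6% had another transient region within 10 kb, against 12.5% of all distal regions.

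Assigning each region to the nearest protein-coding TSS within 50 kb placed 5180 of the 7739 transient regions at 3821 genes. They were spread thinly, with 2843 genes having 1 and 75 having at least 4. The genes with most were mainly long ones. Etl4 had 10 of its 48 distal regions in this class, all within the gene, Plcb4, a phospholipase C, had 8 of 43, and Utrn, which encodes the cytoskeletal linker utrophin, had 7 of 32. Another 7 genes had 6 each. These were Akap2, which anchors protein kinase A, Bcat1, an enzyme of branched-chain amino acid breakdown, Bcr, Myof, Nos1, the neuronal nitric oxide synthase, Pde4d, a phosphodiesterase of cyclic AMP, and Rbpms, an RNA-binding protein. Among these, Bcat1 and Nos1 had 19 distal regions each and Myof had 36. Bcr had 39, Akap2 42, Rbpms 46 and Pde4d 52. Over all distal regions near a gene, 7.31% were transient from 2 h. Of the 10 transient regions at Etl4, 5 ended at 2 h and none lasted to 24 h, and 7 held AP-1 against 3 with GATA.

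Gene groups were read against the share of all distal regions near a gene that were transient from 2 h, 7.31%. Of the distal regions near PrE genes, 220 of 3478 were transient (6.33%), and near Epi genes 137 of 1689 were (8.11%). Put the other way, PrE genes took 4.25% of the assigned transient regions, 4.91% of all assigned distal regions and 9.51% of the kept ones, and Epi genes took 2.64%, 2.38% and 2.21%. The kept regions thus lay at PrE genes more often than the transient ones, by these counts and with no test.

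Immediate-early genes, which respond first to serum and growth factors, had 18 transient regions among 199 distal ones (9.05%), at 12 of 27 genes. Klf6, a zinc finger factor, had 4, of which 2 lasted to 16 h and 3 held AP-1, and Egr3, Ier2 and Myc had 2 each. Jun and Fosb, which encode AP-1 subunits, had 1 each, both ending at 2 h, and Fos had none among its 12 distal regions. SRF and actin cytoskeleton genes had 12 of 162 (7.41%), including 4 at Vcl, which encodes the focal adhesion protein vinculin, and 2 at Tpm1, a tropomyosin. Genes of FGF signalling and ERK feedback had 13 of 191 (6.81%). Among them the ERK phosphatase Dusp5 had 3, the FGF receptor Fgfr1 and the inhibitor Spred2 had 2 each, and the feedback inhibitors Spry1 and Spry4 had 1 each, both ending at 2 h and both with AP-1 and GATA matches.

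Counts at lineage genes were small. Naive pluripotency genes had 10 of 244 (4.10%), with 2 each at Esrrb and Tbx3 and 1 at Nanog that held AP-1 and ended at 4 h. Formative epiblast genes, which mark the state after naive pluripotency, had 5 of 105 (4.76%), 2 of them at Lef1. Endoderm transcription factors, in a list that also held the receptor gene Pdgfra, had 8 of 153 (5.23%). Pdgfra had 17 of these distal regions and no transient one. The endogenous Gata6 gene had 2, ending at 2 h and at 4 h, and neither held a GATA match, while Klf6, also in this group, had 4. Trophectoderm genes, of the lineage that forms the placenta, had 12 of 124 (9.68%), with 3 each at Elf5 and Tead4, transcription factors of that lineage, and 2 at the keratin gene Krt18. None of the transient regions at Elf5 held AP-1. All of these counts are small, and the highest share, 9.68%, rests on 12 regions.

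Several facts of the lists limit these values. The 14 lists held 55588 to 65073 peaks each, and no list gives reads, so depth is unknown and a missing call can be accessibility under a library's threshold. At the edge of the rule, 538 further regions gained at 2 h were called in 1 of the 48 h libraries, 5575 with otherwise the same calls were called in 1 of the 2 h libraries, and 155 transient regions had a midpoint 1001 to 1500 bp from a TSS against 141 with the same calls at 501 to 1000 bp. As a check of the cell state, distal and promoter regions of Gata6, Gata4, Sox17, Sox7 and Pdgfra, markers of PrE, included 30 gained and 5 lost at 48 h. Those of Nanog, Sox2, Esrrb, Klf4 and Pou5f1, markers of Epi, included 13 gained and 20 lost.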

How the data were processed

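The authors made 1 peak list per library with the ENCODE ATAC-seq pipeline on mm10 (GRCm38). Per the deposited file names, peaks passed an irreproducible discovery rate of 0.05 on pseudoreplicates of that library and a blacklist filter, and replicates were not pooled. Each deposited peak carries 1 unnamed score of unstated scale, used here only as a percentile within its list. The lists hold no reads, so the differential test of the study was not possible.

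Autosomal peaks were merged and called as described, with GENCODE vM21 protein-coding TSSs. Of 839049 peaks, 17577 lay on the sex chromosomes and 0 ended past a chromosome's end. The regions and gene lists were chosen with earlier results of these data known. The PrE and Epi lists are those of the study, from blastocyst cells, and 577 of 579 and 220 of 221 of their genes matched an autosomal gene. Named genes are the 10 with most transient regions and listed genes with one, of which some are not reported here. Named regions are the highest-scoring of each clean duration and motif class. A highest-ranked region on a chromosome not printed here was replaced by the next. Motifs were sought in 200 bp on both strands, and motif classes and the 4 score groups were formed after seeing the data.

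Trends with time used exact permutation tests (all 40320 orders) with Benjamini-Hochberg adjustment at 0.05. Shares of regions carry no test, as regions are not replicates. Deviations of libraries with the same replicate number were nearly uncorrelated, with correlations between -0.0118 and 0.00741 over 21 pairs of time points. Replicate 2 had the longer list at every time point, such as 61988 against 58322 peaks at 2 h. The labels do not say whether the numbers mark a shared batch. Scripts were tested on simulated data and used Python 3.11.15, NumPy 2.4.6, pandas 2.3.3, SciPy 1.17.1, statsmodels 0.14.6 and Matplotlib 3.10.9.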

Additional observations from a re-analysis of the deposited data

How the results depend on the processing

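The 13 results were recomputed with at least 50% of a region covered, peaks within 100 bp merged, the 50000 highest peaks per library, TSSs over 5 kb away, genes within 100 kb, other motif windows and, chosen after seeing the data, 1 TSS per gene. Of 77 values that left out no replicate, 70 were counted as unchanged. Trends had to keep their direction and their side of the threshold, and shares had to move less than their error. The number of regions had only to stay within a set factor of 7739, as did 6807 with the 50000 highest peaks per library. Shares of regions are held to a counting interval, which is narrow with 7739 regions. The share never called again in both libraries after 2 h was 42.1% at 50% coverage. Asking for a call in at least 1 of the 2 h libraries gave 13314 regions. In the whole region GATA was found in 67.2% and AP-1 in 74.6%, and around the 2 h peaks AP-1 was found in 57.2%. These other windows were read in transient regions only, so no share over all distal regions stands beside them. Whole regions are mostly longer than 200 bp, which gives more room for a match. In the main window TGACTCA or TGAGTCA alone, also chosen after seeing the data, was found in 47.4%. The rho of all distal regions with time turned to 0.239 without the 24 h libraries. With times permuted within replicate numbers, as a replicate block (576 orders), rho stayed at -0.976 for the called share (p = 0.00347, adjusted p = 0.00521) and no call changed. Because the numbers share no culture or day in the labels, this is given for completeness.

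Leaving out 1 library or all libraries of 1 replicate number gave 7981 to 12846 regions, with 12846 without replicate 1 and 11835 without replicate 2. The share never again called in both libraries after 2 h ranged from 31.6% to 50.9%. At a time point with 1 library left out, a call in the other library was enough. The share with GATA ranged from 40.2% to 42.2% and that with AP-1 from 45.3% to 52.0%. The rank correlation with time ranged from -1 to -0.973 for the called share, for the score percentile and for the AP-1 share, from 0.973 to 1 for the difference between kept and transient regions, and from 0.400 to 0.918 for the GATA share. With 1 replicate number, 4 libraries cannot go below an exact p of 0.0833 and no trend passed. The share left to a 2 h library (73.8%) needs both 2 h libraries and was recomputed only without 0 h or 48 h libraries, at 73.5% to 73.9%. Depth is unknown, so how far missed calls shorten a duration could not be measured.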

Other observations

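The X chromosome was left out of the counts above. Under the same rule of calls it held 142 transient regions among 2066 distal ones (6.87%), against 7.57% on the autosomes. Of these, 48.6% held AP-1, against 12.6% of the distal regions of X. GATA was held by 57.7%, and its share over the distal regions of X was not computed, so this value has no background. In the order 4, 8, 16 and 24 h, both libraries called 59.2%, 31.7%, 16.9% and 4.23% of them. Among the autosomes, the share of distal regions that were transient from 2 h lay between 6.67% on chromosome 17 and 8.24% on chromosome 14.

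A small class, 0.349% of the transient regions, was called at 2 h, then missing from the lists, then called again. A missing call can be accessibility under a library's threshold, so these calls do not show that the regions closed in between. In all, 27 transient regions were in no list at 4 h or 8 h and were then called in both libraries at 16 h or 24 h, 24 of them at 16 h and 6 at 24 h. Their median percentile over the 2 h libraries was 22.8, under the medians of all transient regions. AP-1 was found in 9 of the 27, against 52.7% of all transient and 13.1% of all distal regions. GATA was found in 6, against 41.8% and 39.5%. These counts are small and were not tested.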
